A study of Homo sapiens with 5 samples.

Results

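The transcripts described here encode 3 families of cytosolic reductases: the aldo-keto reductases AKR1A1, AKR1B1, AKR1B10, AKR1C1, AKR1C2 and AKR1C3, the carbonyl reductases CBR1 and CBR3, and the quinone oxidoreductases NQO1 and NQO2. They were taken by gene symbol from the platform annotation of the array, which names 13 of the 22215 probe sets for 8 of the 10 listed genes, out of 12165 genes that have a probe set of their own. No probe set is named for AKR1A1 or AKR1B1 there, so these genes are not analysed here. None of the 13 probe sets is shared between listed genes. Messenger RNA was measured in LNCaP cells, an established human prostate cancer cell line that expresses the androgen receptor, on Affymetrix arrays after Trizol lysis. The cells were grown in RPMI with 10% fetal bovine serum and received 1.25 µM celastrol, a triterpenoid from the thunder god vine, for 6 h (2 arrays), or its solvent DMSO for 6 h (3 arrays). The labels call the arrays of a group biological replicates and do not say whether these were separate cultures, so p-values measure the spread between these arrays. Below, levels are the deposited intensities, and changes are celastrol minus DMSO replicates 1 and 2 on the scale log2(intensity + 1), which understates the change of dim probe sets.

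Aldo-keto and carbonyl reductases use NADPH to turn aldehydes and ketones, including those formed by lipid peroxidation, into alcohols, and AKR1C enzymes also reduce ketone groups of steroids and prostaglandins. NQO1 reduces quinones by a pair of electrons at once, which avoids the semiquinone radical. Many of these genes, with NQO1 as the standard example, are targets of NRF2, a transcription factor that electrophiles release from its inhibitor KEAP1 and that binds antioxidant response elements together with small MAF proteins. In the prostate AKR1C3 makes testosterone from androstenedione, while AKR1C1 and AKR1C2 inactivate dihydrotestosterone.

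The array labelled DMSO replicate 3 stood apart from the other 4. Its Pearson correlation with each of them across probe sets was 0.843 to 0.844, while the other 4 correlated at 0.994 to 0.998. Among 10 measured markers of luminal prostate cells, 9 were more than 2-fold below the other arrays' mean there, and the summed intensity of the list was 219 there against 13471 to 13877 on the celastrol arrays and 14352 to 14616 on DMSO replicates 1 and 2. The leukocyte list ran the other way, with 11 of 13 measured genes more than 2-fold above the other arrays and a summed intensity of 27217, against 854 to 872 with celastrol and 931 to 934 on the other DMSO arrays. Of the 5, 6 and 6 measured markers of basal, fibroblast and neuroendocrine cells, 1, 1 and 0 were that much higher there. It was therefore left out of the comparison, and its values are given apart. Total intensity per array ran from 4939397 to 5348496, and with so few arrays their number sets the precision.

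The comparison asks which reductase transcripts differed after 6 h with celastrol. CBR3 and NQO1 rose, each on 1 probe set past the threshold, by 5.31-fold and 1.95-fold. A probe set annotated to AKR1C1, whose probes may also match AKR1C2, rose 3.30-fold. In bulk RNA a change in transcript per cell and a change in the make-up of the cells cannot be told apart. On 12 of the 13 probe sets both celastrol arrays lay above both DMSO arrays, and the changes of those 12 ran from 0.25 to 2.41. By the same measure 14.5% of all 22215 probe sets had both celastrol arrays higher. The 13 probe sets had a median change of 0.92, against 0 over all probe sets, but several share a gene or cross-react within a family, so they are not 13 separate observations. Limma with Benjamini-Hochberg adjustment was run on the 13329 probe sets left after the dimmest 40% were removed, and there 3 of the 12 reductase probe sets tested passed an adjusted p of 0.05, all higher. In that fit 0.908% of all tested probe sets passed, and 0.503% passed on the higher and 0.405% on the lower side. Of the 12 tested, 0 owed their place to the celastrol arrays alone, since each had a DMSO mean above the limit of 4.54. With no filter on dim probe sets 0 of 13 passed (0.009% of all 22215), with 12 at an unadjusted limma p under 0.05, as were 13.2% of all. The smallest limma adjusted p among the reductases was 0.0622 there. Leaving out any 1 of the 4 arrays, celastrol or DMSO, also ended all 3 calls, while the change of CBR3 stayed between 2.36 and 2.46, that of the AKR1C1 probe set between 1.61 and 1.84 and that of NQO1 between 0.95 and 0.98.

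**Figure D1:**
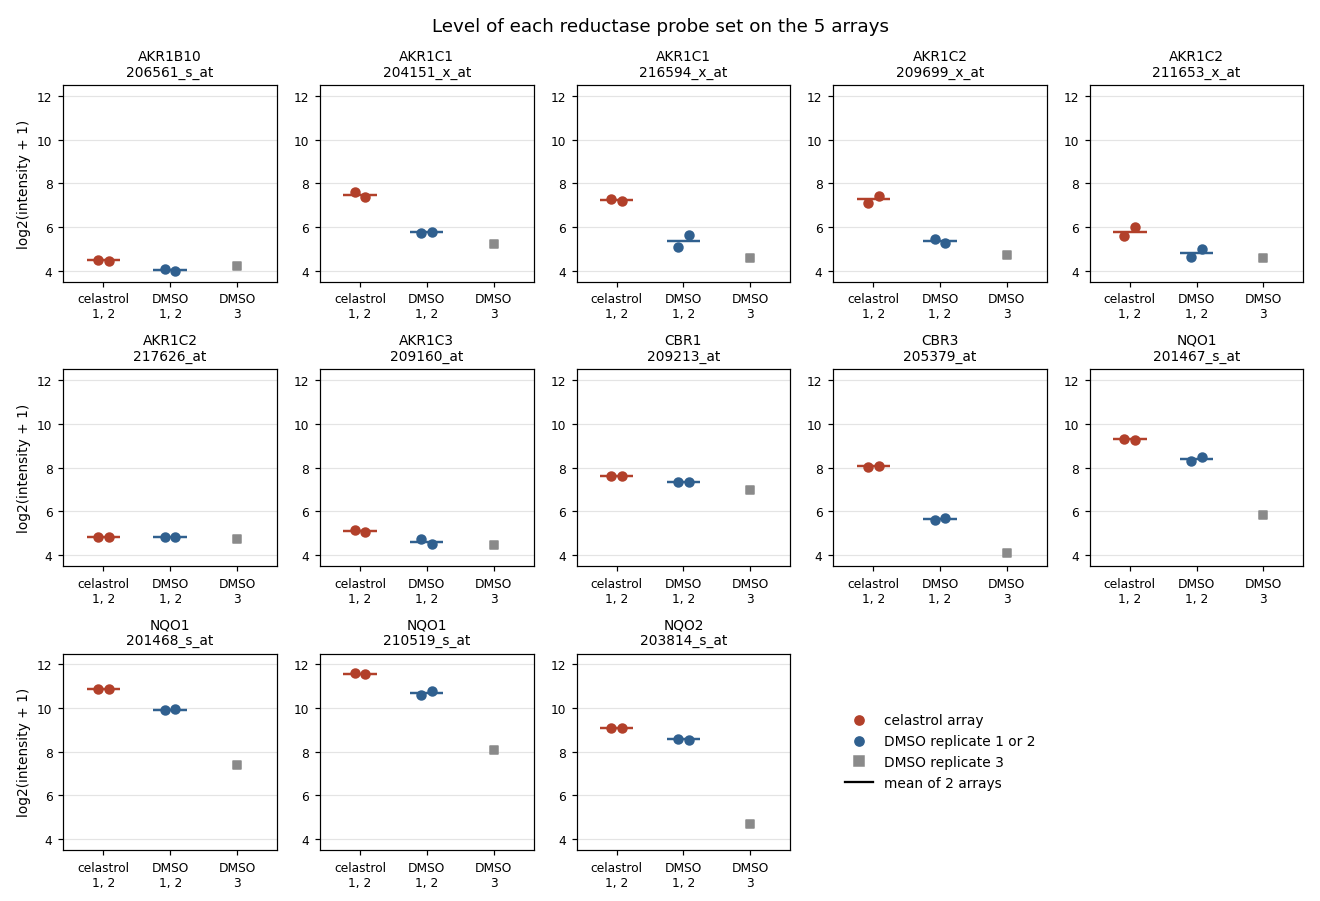
Level of each of the 13 reductase probe sets, as log2(intensity + 1), on each array; red circles are the 2 celastrol arrays, blue circles DMSO replicates 1 and 2 with the mean of each pair as a line, and the grey square is DMSO replicate 3. Both celastrol arrays lie above both DMSO arrays on 12 probe sets, while the AKR1C2 probe set 217626_at stays at 4.83 on all 4.

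AKR1C1 and AKR1C2 encode enzymes that lie side by side with AKR1C3 on chromosome 10, with no other protein-coding gene starting between them in RefSeq. The 2 probe sets of AKR1C1 and 2 of the 3 of AKR1C2 carry the suffix that Affymetrix gives to probe sets whose probes can match several sequences, so AKR1C1 and AKR1C2 cannot be told apart on them. The AKR1C1 probe set 204151_x_at read 192 and 164 on the celastrol arrays, against 51.9 and 54.1 on DMSO replicates 1 and 2. The groups did not overlap, and the signal rose by 1.72 (SE 0.0974, limma adjusted p = 0.0467). The other AKR1C1 probe set, 216594_x_at, read 156 and 148 with celastrol, against 33.4 and 48.1 with DMSO. Its change of 1.89, or 3.71-fold, was no smaller, but the 2 DMSO arrays lay further apart and it did not pass (SE 0.208, limma adjusted p = 0.0790).

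For AKR1C2, the probe set 209699_x_at read 138 and 171 with celastrol, against 43.5 and 38.3 with DMSO, a change of 1.89 (SE 0.147, limma adjusted p = 0.0605). The probe set 211653_x_at read 47.1 and 63.3 with celastrol, against 23.9 and 30.7 with DMSO, a change of 0.98 (SE 0.219, limma adjusted p = 0.168). Both separated the groups, and in both the spread within a group was wide. The third, 217626_at, which is not of the cross-matching kind, read 27.5 and 27.3 with celastrol, against 27.3 and 27.3 with DMSO, so the AKR1C2 probe sets disagreed. It was dim on all arrays, and its change was 0.0035 (SE 0.0254, limma adjusted p = 0.955).

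AKR1C3, the member of the cluster that forms testosterone and prostaglandin F, has 1 probe set. It read 34.1 and 32.6 with celastrol, against 25.2 and 21.9 with DMSO. The celastrol arrays were the higher pair, by 0.49 or 1.40-fold (SE 0.0853), without passing (limma adjusted p = 0.127). AKR1B10, a reductase of retinal and lipid aldehydes, was the dimmest of the 13, with 21.6 and 21.1 on celastrol arrays, against 15.7 and 15.1 on DMSO arrays. Its mean level of 4.26 put it among the dim probe sets left out. In the fit of all probe sets its change was 0.44, or 1.36-fold (SE 0.0308, limma adjusted p = 0.0949).

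The sequences before the starts of the AKR1C genes are shown to compare these neighbouring genes. They are the 250 bases upstream of each start in RefSeq, build GRCh38.p14, given 5′ to 3′ on the gene's own strand. Probe sequences were not compared, so likeness upstream does not show which transcripts the probes match. Capitals mark ATTGG, the reverse complement of the CCAAT box. AKR1C1 lies on the plus strand at chr10:4963165-4963414, AKR1C2 on the minus strand at chr10:5003858-5004107, and AKR1C3 on the plus strand at chr10:5048531-5048780 for the first of its 2 listed starts.
AKR1C1: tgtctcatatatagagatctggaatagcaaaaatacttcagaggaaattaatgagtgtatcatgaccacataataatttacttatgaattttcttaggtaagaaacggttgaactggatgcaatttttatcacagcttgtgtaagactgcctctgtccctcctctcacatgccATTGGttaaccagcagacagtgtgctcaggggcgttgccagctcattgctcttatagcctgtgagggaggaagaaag
AKR1C2: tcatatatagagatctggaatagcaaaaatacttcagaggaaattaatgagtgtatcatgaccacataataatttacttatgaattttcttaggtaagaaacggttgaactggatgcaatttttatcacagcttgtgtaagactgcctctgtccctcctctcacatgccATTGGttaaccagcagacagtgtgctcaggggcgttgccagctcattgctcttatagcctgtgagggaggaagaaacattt
AKR1C3: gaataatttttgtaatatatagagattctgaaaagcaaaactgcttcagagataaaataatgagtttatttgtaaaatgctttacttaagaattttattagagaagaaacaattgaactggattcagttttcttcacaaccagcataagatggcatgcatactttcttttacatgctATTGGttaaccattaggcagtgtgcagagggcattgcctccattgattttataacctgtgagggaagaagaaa
In a pairwise alignment AKR1C1 and AKR1C2 matched at 245 of 246 aligned bases. AKR1C1 and AKR1C3 matched at 79.1% of 239 aligned bases, and at 80.6% of 232 for the other AKR1C3 start. Listed genes of different families came close to that by the same alignment. AKR1B1 and CBR1 matched at 75.6% of 205 bases and NQO1 and CBR1 at 74.5% of 196, while NQO2 and AKR1C3 matched at 51.0% of 104. The AKR1C3 figures are thus little above the highest of those pairs. The box CCAAT, searched on both strands, was present in 5 of the 10 promoter entries of listed genes and in 32% of all 35116 entries. The 5 include all 4 AKR1C entries, which are alike in sequence and so are not 4 separate observations.

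CBR3 had the largest change of the 13 probe sets, 3rd among all 13329 tested. It encodes a carbonyl reductase next to CBR1 on chromosome 21, with no other protein-coding gene starting between them in RefSeq. Its probe set 205379_at read 263 and 271 on celastrol arrays, against 47.7 and 51.3 on DMSO replicates 1 and 2. In log2 terms that was 8.07 ± 0.0315 with celastrol and 5.66 ± 0.0733 with DMSO (SD, n = 2 each). The transcript rose by 2.41 (SE 0.0517, limma adjusted p = 0.0315). The replicates of either group were close, and the smallest difference between any celastrol and any DMSO array was 2.33.

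CBR1, the broadly expressed carbonyl reductase that reduces prostaglandin E, menadione and anthracyclines, read 194 and 193 with celastrol, against 163 and 163 with DMSO. The groups did not overlap, but the difference of 0.25, or 1.19-fold, was the smallest among the 12 probe sets that separated them and did not pass (SE 0.0257, limma adjusted p = 0.0743). The DMSO values were identical, as RMA values of many probe sets are in this table. CBR3 and CBR1 thus had changes of 2.41 and 0.25, and the difference between these changes was not tested.

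**Figure D2:**
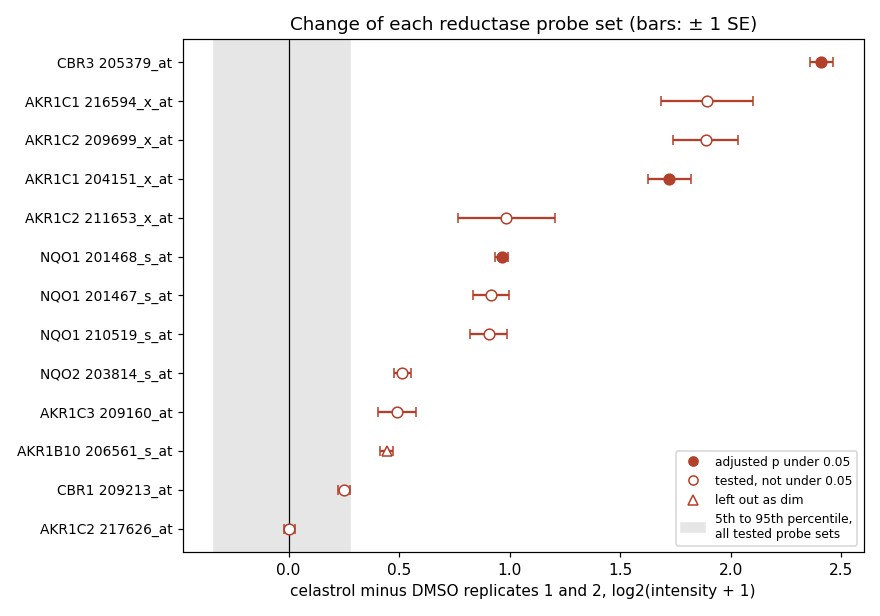
Change of each reductase probe set, celastrol minus DMSO replicates 1 and 2 on the scale log2(intensity + 1), with 1 SE either side; filled circles passed the limma test, open circles did not, and the triangle is AKR1B10, left out as dim. The grey band spans -0.34 to 0.28, the 5th to 95th percentile of all tested probe sets, and 11 of the 13 points lie to its right.

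The antioxidant response element has the core TGACNNNGC, which was searched on both strands of the same 250 bases in the RefSeq promoter table. The table held 10 entries for 8 of the listed genes, AKR1A1 and AKR1B1 included, and none for CBR3 or AKR1B10. Of these entries 1 contained the core, that of CBR1, against 10.9% of all 35116 entries. The related motif TGANTCA, which can overlap the core, was in 0 of the 10 and in 6.57% of all. The CBR1 match, on the minus strand, is shown in capitals in a stretch of 60 bases on the plus strand at chr21:36069840-36069899, because it is the one match found; it begins 159 bases before the start of the gene.
CBR1: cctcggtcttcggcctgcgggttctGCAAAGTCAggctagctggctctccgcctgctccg
NQO1, which rose, and the 4 AKR1C entries had no match in this window. Bases further from the start were not searched, so whether these genes carry the element elsewhere was not tested.

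NQO1, which also supplies the standard enzyme assay for NRF2 activity, had 3 probe sets with similar changes. The probe set 201468_s_at read 1899 and 1884 with celastrol, against 956 and 982 with DMSO. In log2 terms that was 10.9 ± 0.00809 with celastrol and 9.92 ± 0.0272 with DMSO (SD, n = 2 each), and the transcript rose by 0.96 (SE 0.0299, limma adjusted p = 0.0315). The replicates of both groups were closest on this probe set of the 3. The probe set 201467_s_at read 634 and 623 with celastrol, against 312 and 355 with DMSO, a change of 0.92 (SE 0.0792, limma adjusted p = 0.0629). The probe set 210519_s_at read 3149.7 and 2988 with celastrol, against 1535 and 1748 with DMSO, a change of 0.90 (SE 0.0843, limma adjusted p = 0.0685). The folds were 1.95, 1.89 and 1.87, and the groups did not overlap on any of the 3.

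NQO2, a paralog that takes electrons from dihydronicotinamide riboside in place of NADPH, read 549 and 538 with celastrol, against 389 and 371 with DMSO. The groups were separate, and the difference of 0.51, or 1.43-fold, did not pass (SE 0.0386, limma adjusted p = 0.0605).

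On DMSO replicate 3 the reductases were lower than on both other DMSO arrays for 12 of 13 probe sets, which also held for 38.4% of all probe sets. NQO2 read 25.1 there and was 14.6-fold below the mean of DMSO replicates 1 and 2. The 3 NQO1 probe sets read 55.8, 168 and 267, which were 5.87-fold, 5.73-fold and 6.12-fold lower. CBR3 read 15.8, which was 3.00-fold lower, and CBR1 read 123, which was 1.31-fold lower. These NQO1, NQO2 and CBR3 probe sets are the 5 of 13 that were at least 2-fold lower on it, as were 10.1% of all probe sets. The AKR1C1 probe sets read 36.2 and 22.9, those of AKR1C2 25.3, 23.2 and 25.7, and that of AKR1C3 21.2, between 1.06-fold and 1.72-fold lower. AKR1B10 alone was higher, at 17.4 or 1.12-fold. This array has no second of its kind, so these differences have no replicate check.

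When DMSO replicate 3 was counted with the other DMSO arrays, the changes of the quinone oxidoreductases were larger and their errors much larger. NQO2 then had a change of 1.80 (SE 1.46) and the 3 NQO1 probe sets changes of 1.77 to 1.80 (SE 0.951 to 0.989). CBR3 had a change of 2.94 (SE 0.601). AKR1C1 on 204151_x_at moved little, to 1.90 (SE 0.220). No reductase probe set passed on the 5 arrays, with limma adjusted p of 0.820 to 0.876 and 7 of 13 at an unadjusted p under 0.05. Over all probe sets 0% passed on the 5 arrays, and 2.81% had an unadjusted p under 0.05.

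**Figure D3:**
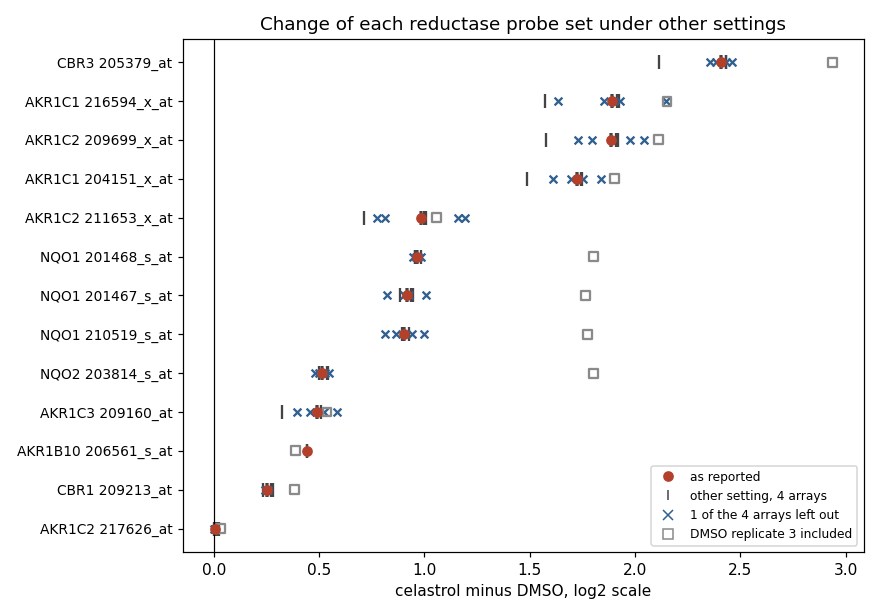
Change of each reductase probe set (celastrol minus DMSO, log2 scale) as reported (red), under other settings on the 4 arrays (ticks), with 1 of the 4 arrays left out (crosses) and with DMSO replicate 3 included (squares). CBR3 stays between 2.11 and 2.46 on the 4 arrays, and NQO2 and the NQO1 probe sets move most when DMSO replicate 3 is included.

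Among related genes, those that passed the threshold were all in the list of NRF2 targets. Genes of other lists, such as MAFG, DHRS3 and ALDH3A2, also had both celastrol arrays above both DMSO arrays but did not pass. Of 34 other NRF2 targets 28 were measured and 27 tested, and 3 passed, where 0.908% of all tested probe sets did. HMOX1, the heme oxygenase, SLC7A11, the cystine importer, and TXNRD1, the cytosolic thioredoxin reductase, rose by 5.94, 1.71 and 1.25 (limma adjusted p = 0.0315, 0.0315 and 0.0387). On the lower side 0 passed. For 17 of the 28 both celastrol arrays lay above both DMSO arrays, against 15.0% of all 12165 genes, and the list's median change was 0.15 against 0 over all genes. Of the 28, 23 had a change above 0 and 7 were at least 2-fold higher, while 1 had both celastrol arrays below both DMSO arrays. For scale, the change of 0.98 of 211653_x_at, just under 2-fold, ranked 61st among all tested probe sets. The shares of all genes above 0 or below both DMSO arrays were not computed, so those counts have no background. Among the few with a change below 0, GSTM3, a glutathione transferase, and GSR, glutathione reductase, had the smallest p, with changes of -0.07 and -0.03. Neither passed (limma adjusted p = 0.570 and 0.617).

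Of 8 measured regulators of the NRF2 pathway, 7 were tested and 0 passed, where 0.908% of all tested probe sets did. The median change was 0.03. MAFG, a small MAF partner of NRF2, had a change of 0.64 (limma adjusted p = 0.0535) and BACH1, a repressor at the same elements, 0.23. CUL3, the scaffold of the KEAP1 ubiquitin ligase, had a change of -0.12 and BTRC, another ubiquitin ligase subunit, -0.10. NFE2L2, which encodes NRF2, and KEAP1 had changes of 0.08 and -0.0013.

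In the wider enzyme families 1 gene passed, TXNRD1. Only 0.908% of all tested probe sets passed, so a count of 0 in lists this short does not show that a family was unchanged. Of 9 other aldo-keto reductase superfamily genes 7 were measured, 2 were tested and 0 passed. These 2 were AKR7A2, an aflatoxin aldehyde reductase, at -0.26 (limma adjusted p = 0.0959), and the potassium channel subunit KCNAB2 at -0.06. Of 23 measured short-chain dehydrogenases and carbonyl-reducing enzymes 0 of 20 tested passed, with a median of -0.03. The quinone and carbonyl reductase CBR4 had a change of -0.69, the retinal reductases RDH11 and DHRS3 of -0.34 and 0.45, and the sepiapterin reductase SPR of 0.29.

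Among 15 measured quinone, enone and flavin-dependent reductases, all tested, TXNRD1, which the NRF2 list also holds, was the 1 that passed, on the higher side. POR, the electron donor of cytochromes P450, had a change of 0.22, CYB5R1 of -0.22 and NDOR1 of -0.26. Of 20 measured aldehyde and alcohol dehydrogenases 12 were tested and 0 passed, with ALDH3A2 at 0.40, ALDH2 at 0.12, ALDH1B1 at -0.68 and ALDH5A1 at -0.31. Of 24 measured enzymes of androgen and steroid metabolism 14 were tested and 0 passed. With 0.908% of all tested probe sets passing, few or no calls would be found in any list of this size. Their changes ran from -0.16 to 0.17 with a median of 0. Steroid sulfatase STS and the androgen-conjugating UGT2B17 had changes of -0.16 and -0.12, and SULT2B1 and HSD17B14 had 0.17 and 0.07.

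**Figure D4:**
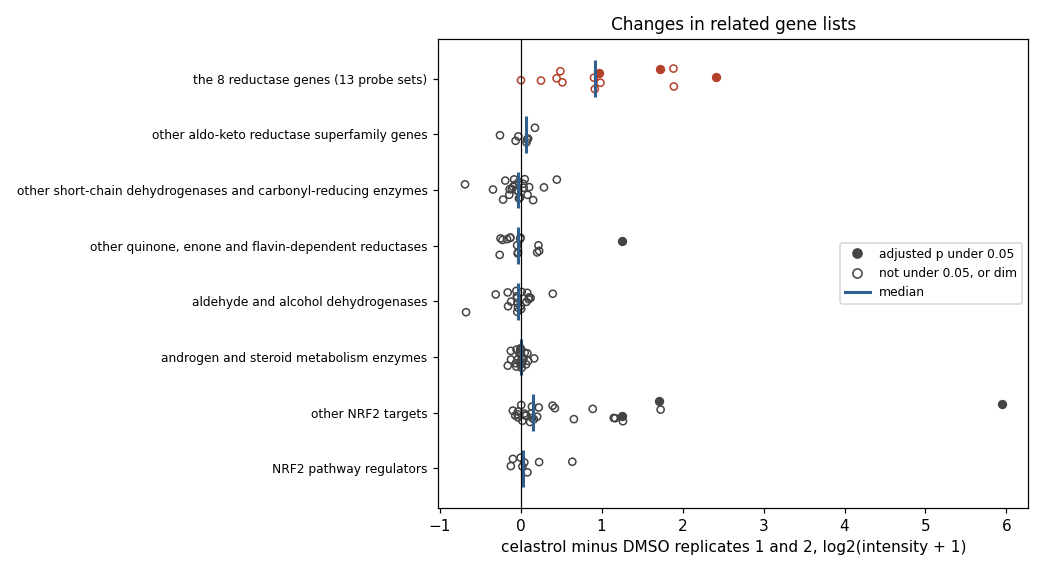
Changes of the 13 reductase probe sets (red) and of the genes of 7 related lists (1 probe set a gene), celastrol minus DMSO replicates 1 and 2 on the scale log2(intensity + 1); filled points passed the limma test and blue lines are medians. The reductase median is 0.92, and those of the 7 lists lie between -0.04 and 0.15. The former counts some genes by several probe sets, so it is not a like measure.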

How the data were processed

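The deposited table gives an intensity for every probe set on each array, on a linear scale. The submitters' processing notes name RMA without a version, and no build is given in the sources used here. All 5 columns were used. The title of each sample set its group; the description of the DMSO samples speaks of celastrol, and their title and treatment protocol were followed. Values were taken as log2(value + 1) of the deposited intensities with no further normalization. Symbols came from the platform annotation, and 8 of 8 member gene IDs were found in the RefSeq table (GRCh38.p14), with 0 symbols changed.

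Limma 3.58.1 in R 4.3.3 (lmFit and eBayes, two-sided, Benjamini-Hochberg over the probe sets tested, threshold 0.05) compared the 2 celastrol arrays with DMSO replicates 1 and 2, after the dimmest 40% of probe sets by mean over these 4 arrays had been left out. That filter was kept because RMA values of dim probe sets tie between arrays. It removed only part of the ties, as 643 of 22215 probe sets, and 260 of the 13329 tested, had no variance within either group. The number of calls depends on it, as given below. The fit was also run on simulated data, which checked only that mean estimates lay near the planted changes. That check does not vouch for the calls reported here. For genes of the related lists, the brightest probe set over the 4 arrays that names the gene alone was used. All member probe sets are named, and in each list the called genes and up to 2 genes a direction with the smallest p; NFE2L2 and KEAP1 were added after their values were seen. The members, lists, filter and tests were chosen with earlier results of these data known. Alternatives covered filters, normalization, pseudocount, variance model, a replicate block, and arrays left out or added.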

Additional observations from a re-analysis of the deposited data

How the results depend on the processing

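As reported, 121 probe sets and 3 reductase probe sets passed. With no filter 2 and 0 passed, with the lowest 20% left out 32 and 2, with the lowest 60% left out 343 and 8, with quantile normalization 389 and 8, and with arrays centred on their medians 306 and 8. The 8 were in each case both AKR1C1 probe sets, 209699_x_at of AKR1C2, CBR3, all 3 of NQO1 and NQO2. With DMSO replicate 3 included 0 and 0 passed, with the dim filter and without it. The cause of these shifts was not tested. Leaving out any 1 of the 4 arrays ended the calls, those of reductases and those of all other probe sets alike. Such a fit has 1 residual degree of freedom fewer and assumes that a lone array varies like the other group. Same-numbered arrays did not deviate together (r = -0.0197 between the replicate differences of the groups over probe sets). The replicate block gave 0 and 0 calls. With the block, 11 of the 12 reductases tested reached an unadjusted limma p below 0.05, and so did 2099 of all 13329 tested. The other settings, a filter over all 5 arrays, log2(value + 16), an intensity trend and robust variance, left 119 to 141 and 3. No reductase changed direction under any of these settings, although 217626_at of AKR1C2 came to 0 without celastrol replicate 1. Of related genes, RDH11, CYB5R1, UGT2B17, GSTM3 and GSR turned to 0.48, 0.69, 0.35, 1.86 and 0.49 with DMSO replicate 3 included, and GSR to 0.0030 with quantile normalization, and with 1 array left out KCNAB2 ran from -0.14 to 0.016 and BTRC from -0.31 to 0.12. Probe sets near the floor, such as AKR1B10, AKR1C3 and 217626_at, limit what can be seen of low transcripts.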
